A study of Homo sapiens with 8 samples.

Results

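Compound C was compared with no compound in human fibrosarcoma HT1080 cells in normal growth, by the log2 intensity of the compound C array (CC) minus that of the untreated array (Control). The comparison took in every probe set, the group of short probes that reads 1 transcript, that reached log2 6 on at least 1 of the 8 arrays of the series. These were 15503 of 54613 probe sets, and 13771 of them carried a single gene symbol and named 8429 of 19775 genes. Both cultures grew for 18 h in medium with 2 mg/mL glucose and 10% serum, one of them with 10 µM compound C. Each was hybridised once, from 100 ng of RNA, so no difference below has a replicate check and no test or p-value could be given.

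The study asked how compounds that block the unfolded protein response in glucose-starved tumour cells change gene expression. Its other arrays held 10 µM versipelostatin (VST), 100 µM phenformin (Phen), 10 mM 2-deoxyglucose (2DG), and 2DG with each of the 3 compounds (2DG+CC, 2DG+VST and 2DG+Phen), all for 18 h and with compounds added just before 2DG. The labels do not say whether the untreated cells received the solvent of the compounds. HT1080 is an established line and 1 line was used.

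Compound C, also called dorsomorphin, is an ATP-competitive kinase inhibitor. It blocks AMP-activated protein kinase (AMPK), the sensor of low cellular energy, and the type I receptors of bone morphogenetic proteins (BMP), which phosphorylate SMAD1, SMAD5 and SMAD9 and so switch on the ID genes. A separate stress route, the integrated stress response, phosphorylates the initiation factor eIF2alpha, which slows most translation while raising that of the transcription factor ATF4. ATF4 and its partner CHOP then drive genes of amino acid uptake and synthesis, and this route forms 1 arm of the unfolded protein response beside IRE1 with XBP1 and ATF6, which drive chaperones of the endoplasmic reticulum (ER).

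The pair of arrays was close in its technical readings. The median over all probe sets was 3.16 on Control and 3.12 on CC, and the median over the expressed ones was 7.26 and 7.35. Spiked poly-A control RNA read 0.10 higher on CC than on Control, so that scaling the arrays on it would lower every difference of CC from Control below by 0.10. On the same scale the VST differences would be lower by 0.05, those of Phen by 0.28 and those of 2DG+CC from 2DG by 0.87. The hybridization control probe sets read 0.17 higher on CC than on Control. They read 0.75 above Control on 2DG+CC and 0.21 above it on 2DG, and no scaling on them was run. The 3′ minus 5′ difference of ACTB, a measure of RNA integrity, was 0.91 on Control and 0.87 on CC. Of 11 mesenchymal markers 6 were expressed. Among them VIM read 13.50 and 13.24, and CD44 11.48 and 10.63 (its other probe sets 0.12 to 0.65 higher on CC). NT5E (2.34 and 1.99) and PDGFRB (2.93 and 2.64), of the same list, lay under the array medians. Of 12 epithelial markers 11 had a probe set of 1 symbol and 3 were expressed. These were KRT18 (10.68 and 10.34), KRT8 (8.39 and 8.03) and KRT7 (5.10 and 6.02). Of 10 blood cell markers 7 had such a probe set, 1 was expressed, and none of them reached log2 6 on either array. A difference in cell number, or in RNA per cell, cannot be told apart from a difference in transcript level in these bulk samples.

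With compound C, 669 probe sets were at least 2-fold higher (4.32% of those expressed) and 443 at least 2-fold lower (2.86%). Which direction held more depended on the scaling: the higher made up 60.2% of these calls as deposited, but 48.8% with the arrays centred on their medians (536 higher, 563 lower) and 46.8% scaled on the poly-A controls (519 and 590). By gene, each read by its brightest expressed probe set, 327 were at least 2-fold higher (3.88%) and 228 at least 2-fold lower (2.7%). Most of the transcriptome differed little: 11965 probe sets (77.2%) lay within 1.5-fold, and the median difference over genes was 0.04. At 4-fold the counts were 86 higher and 31 lower. Of the 669 higher probe sets 73 reached log2 6 on neither Control nor CC, and of the 443 lower ones 77. Over all 15503 expressed probe sets 1814 reached it on neither of these arrays. The probe sets nearest the 2-fold line differed by 1.0013 just inside it and 0.9988 just outside it.

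**Figure D1:**
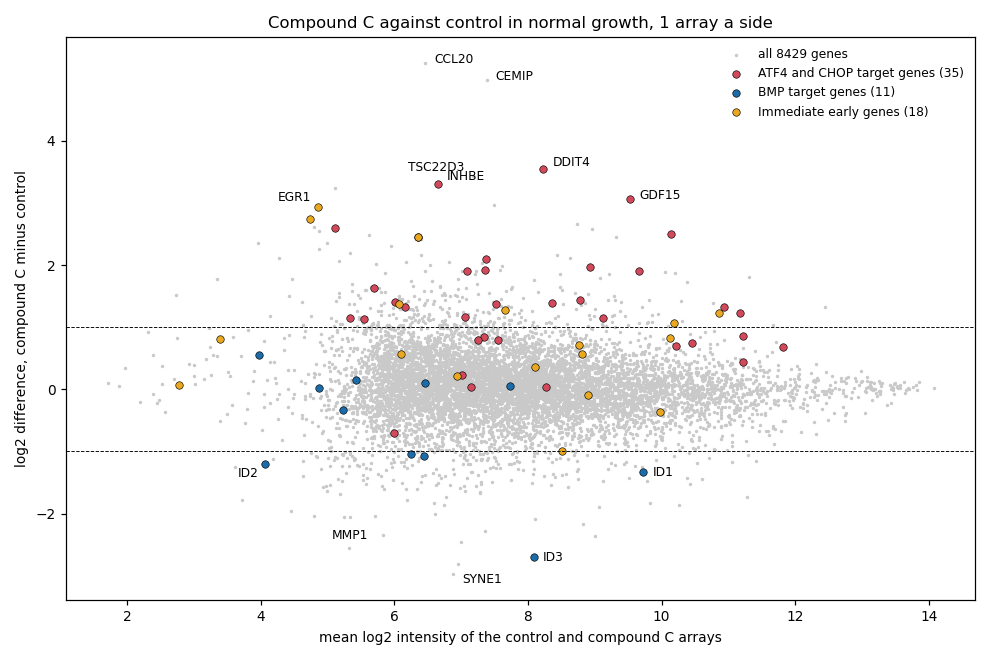
Log2 difference of compound C from control (vertical axis) against the mean log2 intensity of both arrays (horizontal axis), 1 point a gene, with 3 gene lists coloured and the 2-fold lines dashed. The ATF4 and CHOP target genes sit mostly above the upper line, 23 of 35 of them at least 2-fold higher, and 5 of 11 BMP target genes sit below the lower line.

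The only measure of spread inside the pair comes from genes read by several probe sets. Over 8834 probe sets of 3492 such genes, the difference had an SD of 0.337 between probe sets of the same gene, which holds no spread between cultures. Of the 327 higher genes 120 had another expressed probe set, and the next brightest was at least 2-fold higher in 71, of the same sign in 112 and at least 2-fold lower in 1. Of the 228 lower genes 77 had one, which was at least 2-fold lower in 36, of the same sign in 70 and at least 2-fold higher in 4. The differences of named genes below are of the brightest probe set. For printed differences of CC from Control, the others are given where one departs from it by more than this SD. For differences in 2DG the others are given only for genes flagged for a closer look.

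For each list count below, the share over all genes was 3.88% at least 2-fold higher and 2.7% at least 2-fold lower with compound C. A list with 1 called member is not read as a result about that list. Of the 42 gene lists described, that of ATF4 and CHOP targets held the most genes at least 2-fold higher. Of 35 measured members 23 were at least 2-fold higher and none 2-fold lower, and their median difference was 1.33 against 0.04 over all genes. DDIT4, whose product restrains the growth kinase mTORC1, read 6.45 on Control and 10.01 on CC (a difference of 3.55, 11.8-fold). INHBE, an inhibin subunit secreted under stress, read 5.00 and 8.30 (3.30, 9.84-fold). GDF15, a stress cytokine, read 7.99 and 11.06 (3.07, 8.39-fold). These 3 genes were each over 8-fold higher on the compound C array.

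NUPR1, a small stress-induced nuclear protein, read 3.81 on Control and 6.41 on CC, a difference of 2.60. ASNS, the asparagine synthetase, read 8.89 and 11.39 (2.50). The list covered amino acid transporters, serine and cysteine synthesis and the transcription factors of the response, and 34 of its 35 members were above 0. The single member below 0, ATF5, named after its values were seen, read 6.35 and 5.65 (−0.70), and ATF4 itself read 11.48 and 12.17 (0.68).

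Promoter sequence is described for the list because its members differed together. RefSeq promoters (GRCh38.p14, 250 bases before to 50 after any listed start) were at hand for 7077 of the 8429 genes and for 28 of the ATF4 and CHOP targets. The letters TGATGNAA, on either strand, match the composite element bound by ATF4 with a C/EBP factor, and this motif was chosen after the differences had been seen. It lay in 8 of the 28 (28.6%), against 207 of all 7077 (2.9%), 17 of 271 higher genes (6.3%) and 8 of 178 lower genes (4.5%). The list is one of known ATF4 targets, so its share would be high whatever compound C did. The 17 higher genes with the motif include its members ASNS, ATF3, CHAC1, SLC3A2 and SLC1A4. The share of the higher genes is therefore not separate from that of the list. CCAAT, the NF-Y box, lay in 19 of the 28 (67.9%) against 44.1% of all. GGCGCC, of SMAD1 and SMAD5, lay in 12 (42.9%) against 38.3% of all. Motifs of SREBP, CRE, FOXO and AP-1 were counted too and lay in 1 to 4 of the 28. Of the members at least 2-fold higher, 3 held TGATGNAA wholly before a start, and their windows are printed on the strand of the gene, with the match in capitals. They are upstream of 1 of 2 listed starts of ASNS (chr7:97872433-97872512, minus strand, match from base −68), of CHAC1, a glutathione-degrading enzyme (chr15:40953226-40953305, plus strand, match on the reverse strand from base −209), and of the upstream one of 2 starts of ATF3, a transcription factor of the same response (chr1:212565180-212565259, plus strand, from base −191).

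ASNS: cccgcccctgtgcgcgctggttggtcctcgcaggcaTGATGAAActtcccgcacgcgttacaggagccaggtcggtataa

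CHAC1: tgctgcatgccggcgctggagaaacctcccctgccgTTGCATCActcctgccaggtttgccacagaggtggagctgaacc

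ATF3: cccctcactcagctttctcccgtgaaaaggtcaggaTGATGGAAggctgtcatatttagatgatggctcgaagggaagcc

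Of the 3 genes whose windows are shown, ASNS differed by 2.50, ATF3 by 2.45 (5.13 and 7.59, other probe set 1.32) and CHAC1 by 1.14 (4.97 and 6.11). A match of letters is a description of the window and not a binding measurement.

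The other compounds gave values for the same list against the same Control array, so these comparisons are not independent of that of compound C. The median was 1.30 with VST, with 25 members at least 2-fold higher (2.46% of all genes were) and 1 lower (2.48%), and 0.56 with Phen, with 10 higher (2.66%) and none lower (2.17%). With 2DG alone it was 1.19, with 21 higher (3.06%) and none lower (1.9%). DDIT4 read 10.73 on VST, 8.26 on Phen and 8.65 on 2DG, beside 10.01 on CC.

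**Figure D2:**
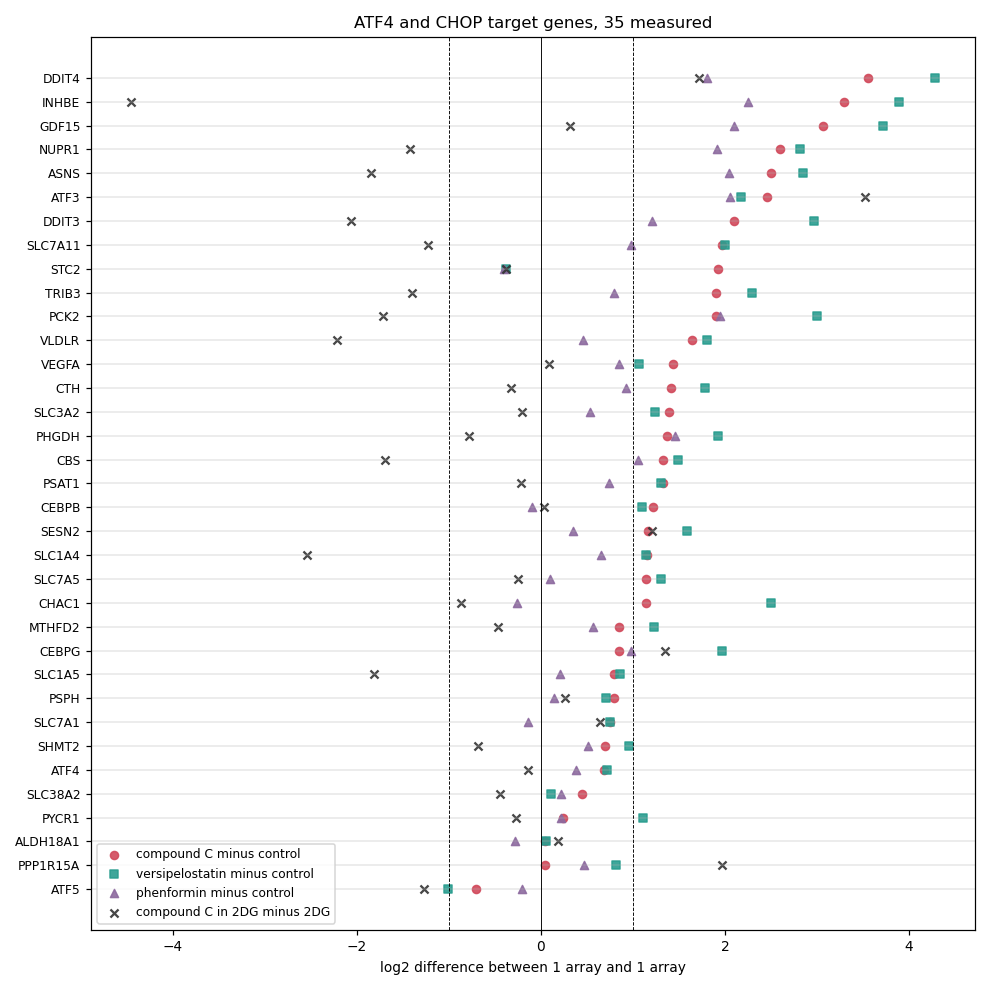
Log2 differences (horizontal axis) of the 35 measured ATF4 and CHOP target genes (rows, ordered by compound C) for compound C, versipelostatin and phenformin against the same control array, and for compound C in 2DG against 2DG. Circles lie to the right of 0 in 34 rows, while crosses (compound C in 2DG) are at least 2-fold lower in 12 rows and at least 2-fold higher in 5.

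Chaperones of the ER, the other output of the unfolded protein response, were not among the higher genes. Of 23 measured none was 2-fold higher and 1 was 2-fold lower, with a median of −0.19. HSPA5, which encodes the chaperone GRP78, read 11.19 on Control and 10.58 on CC (−0.60), while its other probe set differed by 0.31. HSP90B1, which encodes GRP94, read 10.39 and 9.85 (−0.54). CALR, a lectin chaperone, read 9.42 and 8.36 (−1.06), with −1.28 and −1.0 on its other probe sets. On the 2DG array, 16 members of this list were at least 2-fold higher than on Control.

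Among 26 genes of the sensors and of the XBP1 and ATF6 branches, 2 were at least 2-fold higher and none lower, with a median of 0.22. ERN1, which encodes the sensor IRE1, read 4.72 and 6.74 (2.01), though its other probe set differed by −0.91. EDEM2, of ER-associated degradation, read 6.71 and 7.72 (1.01). EIF2AK3, which encodes the sensor PERK, read 6.37 and 6.38, ATF6 read 7.26 and 8.21 (0.95, other probe set 0.25), and XBP1 read 6.91 and 7.46. EIF4EBP1, a brake on translation initiation and an ATF4 target, read 10.36 and 11.09. Of the 17 tRNA synthetases, which charge tRNAs with amino acids, SARS1 (1.73, other probe set 0.98) and GARS1 (1.03) were higher and IARS1 (−1.02) lower.

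Of 11 measured BMP target genes 5 lay 2-fold or more under Control on the CC array and none lay 2-fold over it, with a median of −0.33. ID3, an inhibitor of differentiation that BMP receptors switch on through SMADs, read 9.43 on Control and 6.74 on CC, a difference of −2.70, which placed it among the 15 lowest genes. ID1 read 10.39 and 9.07 (−1.32). ID2 read 4.66 and 3.47 (−1.20), under log2 6 on both arrays. The 3 ID genes were thus lower together, by 2.29-fold or more.

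NOG, a secreted BMP antagonist, read 6.98 and 5.90 (−1.08), and SMAD9, a receptor SMAD that is also a target, read 6.78 and 5.74 (−1.04). The other 6 members lay between −0.33 for DLX2 and 0.55 for BAMBI, a pseudoreceptor, which read 3.70 and 4.25. SMAD7, the inhibitory SMAD, read 5.36 and 5.50. Over the 6 members that reached log2 6 on the Control array alone, the median was −1.06. That limit was chosen after the data had been seen. It keeps genes that are high on Control, which by itself favours lower differences. The median of the same list was −0.11 with VST and 0.02 with Phen against the same Control array, and ID3 read 8.74 on VST and 9.22 on Phen. With 2DG it was −0.18, with 2 members at least 2-fold higher (3.06% of all genes were) and 2 lower (1.9%). ID1, ID2 and ID3 differed from Control by −1.99, −0.19 and −1.77 with 2DG. The same genes differed by −0.85, −0.97 and −0.69 with VST and by −0.44, −0.29 and −0.21 with Phen. The letters GGCGCC, of SMAD1 and SMAD5, lay in 1 of 9 promoters of the list (11.1%), against 38.3% of all 7077.

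**Figure D3:**
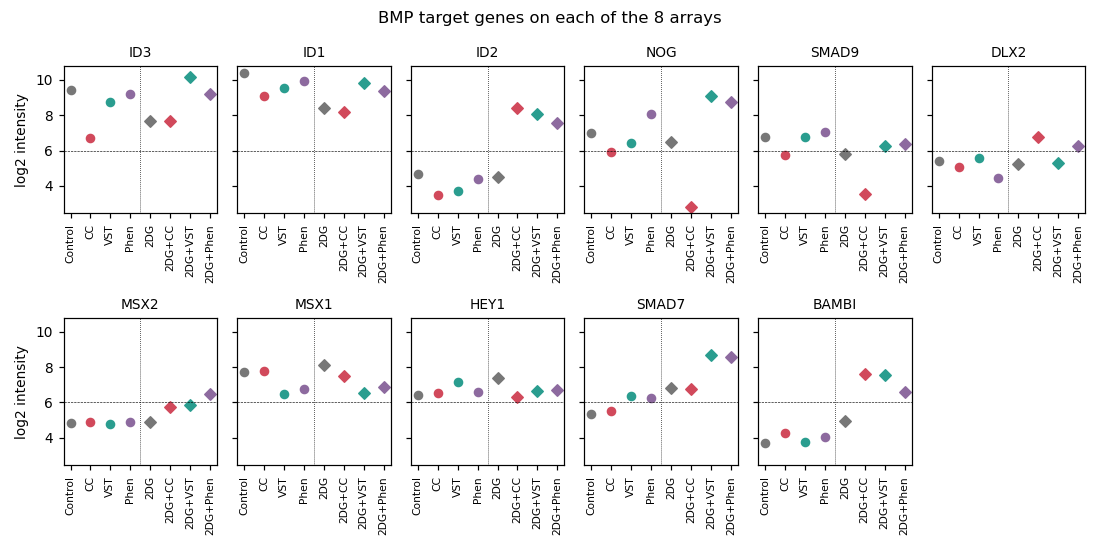
Log2 intensity (vertical axis) of the 11 measured BMP target genes on each of the 8 arrays, 1 point an array, in normal growth (circles) and in 2DG (diamonds), with a dashed line at log2 6. ID3, ID1, ID2, NOG and SMAD9 are at least 2-fold lower on CC than on Control, and ID2 is 3.96 higher on 2DG+CC than on 2DG.

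The components that carry the BMP signal differed less. Of 12 measured ligands, receptors and SMADs none was 2-fold higher or lower, with a median of 0.03 that was −0.05 with the arrays centred. SMAD1 read 8.43 and 8.26 (−0.17, other probe set −0.09), SMAD5 read 8.69 and 8.60, and SMAD4, the common partner, read 7.26 and 7.29. ACVR1, a type I receptor, read 7.68 and 7.85, and BMPR2, the type II receptor, 5.90 and 6.22. The lowest value was that of the ubiquitin ligase SMURF2 (8.71 and 7.94, −0.77, others −0.28 and −0.65) and the highest that of ACVR2B (6.31 and 6.95, 0.64).

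Of 17 measured AMPK subunits, upstream and related kinases, 3 were at least 2-fold higher and none lower, with a median of 0.27. PRKAB2, the beta-2 subunit that ties the complex to glycogen, read 6.27 and 7.76 (1.49), and its other probe sets gave 1.51 and 1.64. SIK1, a salt-inducible kinase of the AMPK family, read 4.16 and 5.35 (1.19), under log2 6 on both arrays. MARK4, a microtubule affinity kinase of the same family, read 5.44 and 6.45 (1.01). The catalytic subunit gene PRKAA1 read 5.11 and 5.43, and STK11, which encodes the upstream kinase LKB1, read 6.50 and 7.09 (0.59). The remaining members lay between −0.39 for PRKAG2 and 0.60 for PRKAB1.

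Immediate early genes, transcription factors that answer growth and stress signals within minutes, had the second highest list median, 0.76, with 7 of 18 at least 2-fold higher and none lower. It was 0.39 without probe sets that may match several transcripts. EGR1 read 3.38 on Control and 6.32 on CC (2.94), while its other probe sets gave 0.70 and 1.41. NR4A2, an orphan nuclear receptor, read 3.37 and 6.11 (2.74), against 3.60 on VST, 3.40 on Phen and 3.37 on 2DG. JUNB read 5.38 and 6.75 (1.37). Of these genes NR4A2 read within 0.22 of Control on the arrays of the other single agents, while EGR1 read between 6.04 and 6.51 on them.

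Of 16 ERK feedback genes DUSP1 (8.09 and 10.54, 2.45) and DUSP4 (6.19 and 7.22, 1.03, other probe sets 1.84 and 1.63), both phosphatases of MAP kinases, were at least 2-fold higher, and the list median was 0.17. Inflammatory genes held the largest single difference. CCL20, a chemokine of the NF-kappaB route, read 3.83 on Control and 9.09 on CC, 38.3-fold, and 4.09, 2.79 and 2.93 on VST, Phen and 2DG. IL6 read 4.13 and 6.20 (2.07), and IL1B 10.40 and 12.21 (1.81, other probe set 1.70).

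LIF, a cytokine of the IL6 family, read 5.84 and 7.0 (1.15), and CXCL3, a neutrophil chemokine named after its values were seen, differed by 1.07. These were the 5 of 13 measured members at least 2-fold higher, with a list median of 0.47. Of 9 interferon-induced genes none was 2-fold higher or lower, IFIT3 being the highest at 0.95.

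Genes read out by glucose and insulin signalling held 3 of the larger differences. TSC22D3, a leucine zipper protein induced by glucocorticoids and FOXO factors, read 5.45 and 8.89 (3.44, 10.9-fold), and 7.12 on VST, 9.84 on Phen and 7.16 on 2DG. TXNIP, the arrestin-like inhibitor of glucose uptake, read 5.32 and 7.48 (2.16, other probe sets 1.95 and 1.74), and 4.33 on VST, 5.05 on Phen and 8.79 on 2DG. Its paralogue ARRDC4 read 2.46, under the median of the Control array, and 4.24 on CC, so it was at least 1.08 higher. The median of the 17 measured FOXO and insulin signalling genes was 0.29, and none was 2-fold lower.

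Of 18 HIF-1 targets 4 were at least 2-fold higher and none lower, with a median of 0.68. BHLHE40, a clock repressor, read 7.70 and 9.31 (1.61), NDRG1 read 9.09 and 10.53 (1.44), VEGFA, the vascular growth factor, 8.06 and 9.49 (1.43, others 1.07 to 1.25) and MXI1, a MAX partner, 7.74 and 8.80 (1.06). VEGFA also belongs to the ATF4 list. Of 21 glycolysis and glucose uptake genes only SLC2A3, the glucose transporter GLUT3, passed 2-fold (7.04 and 8.38, 1.34, others 0.97 and 1.30), and the median was −0.05, or 0.29 without probe sets that may match several transcripts. Of 35 oxidative phosphorylation subunits 1 was 2-fold lower, ATP5MC1 (10.72 and 9.65, −1.07), near the 2.7% of all genes, with a median of −0.13.

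Lipid genes lay mostly above 0 and mostly under 2-fold. Of 18 cholesterol synthesis genes none passed 2-fold, 16 were above 0 and the median was 0.40. The members ranged from −0.55 for PMVK to 0.90 for GGPS1, with HMGCS1, the entry enzyme of the pathway, at 6.58 and 7.18. The same median was −0.74 with VST and 0.56 with Phen against the same Control array. Of 13 fatty acid genes ACSS2, which makes acetyl-CoA from acetate (5.55 and 7.05, 1.5), and ME1, malic enzyme (8.61 and 9.63, 1.02), passed 2-fold, with a median of 0.49.

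SCD, the stearoyl-CoA desaturase, read 10.54 and 11.33 (0.79) and its other probe sets gave 1.23, 1.51 and 1.52. NPC1, the lysosomal cholesterol exporter, read 8.28 and 10.14 (1.86), though its other probe set differed by 0.15. Of 31 autophagy and lysosome genes NPC1, WIPI1 (5.88 and 7.31, 1.43) and MAP1LC3B (8.07 and 9.36, 1.30), both of autophagosome formation, were at least 2-fold higher and none lower, with a median of 0.26.

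Of 19 NRF2 and glutathione genes SLC7A11, the cystine importer that is also an ATF4 target (7.95 and 9.91, 1.97), and ME1 passed 2-fold, with a median of 0.45. HMOX1, heme oxygenase, read 5.23 and 6.22 (0.99). Cytosolic heat shock genes had a median of −0.41, with 14 of 17 below 0. HSP90AB1 read 12.13 and 11.46 and HSPE1 11.68 and 10.86, and only DNAJB6 passed 2-fold (7.63 and 8.65, 1.02).

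Cell cycle genes were lower by small amounts across nearly the whole of 2 lists. Of 40 DNA replication genes 37 were below 0, with a median of −0.54, and 3 were at least 2-fold lower: RRM2, a ribonucleotide reductase subunit (11.10 and 9.68, −1.42, other probe set −0.69), MCM10, a replication initiator (9.31 and 8.16, −1.15, other probe sets −0.72 and −0.69), and TK1, thymidine kinase (8.76 and 7.76, −1.01). Of 44 mitosis genes 41 were below 0, with a median of −0.53. ANLN, the cytokinesis protein anillin (10.22 and 8.99, −1.23), CCNA2, cyclin A2 (9.84 and 8.65, −1.19), ESPL1, separase (8.41 and 7.26, −1.16), and AURKB, Aurora kinase B (8.61 and 7.58, −1.03), were the 4 at least 2-fold lower. No member of either list was 2-fold higher. Over all 8429 genes 3933 were below 0. The other agents also had these lists below the same Control array. The replication median was −0.98 with VST (18 at least 2-fold lower), −0.62 with Phen (7) and −0.76 with 2DG (10). The mitosis median was −0.29 with VST (3 at least 2-fold lower), −0.33 with Phen (1) and −0.99 with 2DG (22).

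**Figure D4:**
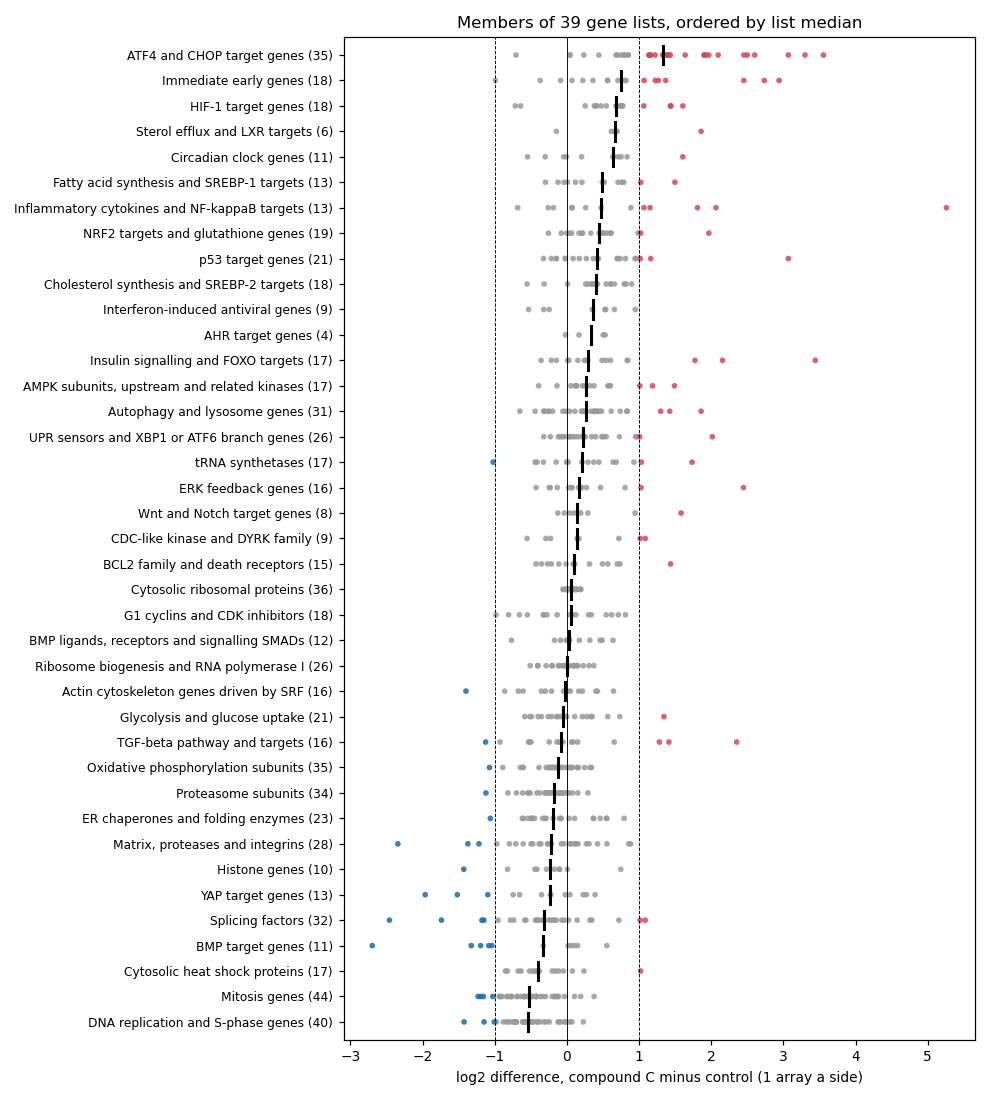
Log2 differences of compound C from control (horizontal axis) for each measured member of 39 gene lists (rows, number of members in brackets), with the list median as a black bar, members at least 2-fold higher in red and at least 2-fold lower in blue. The ATF4 and CHOP list stands at the top with a median of 1.33, and the mitosis and DNA replication lists at the bottom with −0.53 and −0.54.

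The G1 cyclins and CDK inhibitors had a median of 0.05 (−0.03 with the arrays centred on their medians), with none of 18 past 2-fold. SKP2, a ubiquitin ligase subunit for cell cycle inhibitors, read 9.94 and 8.96 (−0.98), and CDKN1A, the inhibitor p21, 7.49 and 8.30 (0.81). H2AX, a histone of DNA damage signalling, read 10.23 and 8.80 (−1.43) and was the 1 of 10 histone genes past 2-fold. Of 21 p53 targets 3 were at least 2-fold higher, GDF15 of the ATF4 list, SESN2 (6.48 and 7.64, 1.16) and GADD45A (9.59 and 10.60, 1.02), with a median of 0.41. Of 15 BCL2 family and death receptor genes BCL2A1, an anti-apoptotic member, was higher (8.48 and 9.92, 1.44), and PMAIP1, which encodes NOXA, read 8.65 and 9.38.

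Genes of adhesion and matrix held several of the lowest values. MMP1, the interstitial collagenase, read 7.01 and 4.67 (−2.34), TNC, tenascin C, 9.20 and 7.83 (−1.37) and MMP3, stromelysin, 6.05 and 4.83 (−1.22), the 3 of 28 measured members at least 2-fold lower. The list median was −0.22. TNC was 1.09 higher on VST and 0.67 higher on Phen than on Control.

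Of 13 YAP targets 3 were at least 2-fold lower and none higher, with a median of −0.23. ANKRD1 read 5.44 and 3.47 (−1.96), AXL, a receptor tyrosine kinase, 11.19 and 9.67 (−1.52, other probe set −0.57) and CRIM1 8.36 and 7.27 (−1.10, other probe sets −1.13 and −1.15). AXL read 11.12 on VST, 11.35 on Phen and 11.10 on 2DG, each within 0.16 of Control. Of 16 actin genes driven by SRF 1 passed 2-fold, CALD1, caldesmon (7.46 and 6.06, −1.40), and the median was −0.02.

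The TGF-beta pathway was split, with 3 of 16 at least 2-fold higher and 1 lower. INHBA, the activin A subunit, read 3.81 and 6.16 (2.35, other probe set 2.62), and SKIL, a repressor of SMADs, 6.77 and 8.19 (1.41, other probe set 0.60). PMEPA1, a TGF-beta feedback inhibitor, read 7.25 and 8.54 (1.28, others 1.24 and 1.84). TGFBI, a matrix protein, read 8.98 and 7.86 (−1.13). Of 8 Wnt and Notch targets JAG1, a Notch ligand, was higher (6.88 and 8.46, 1.58, other probe set 1.85).

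Of 32 splicing factors 4 were at least 2-fold lower and 2 higher, with a median of −0.32. TRA2A, which activates exon inclusion, read 8.22 and 5.76 (−2.46), but its other probe sets gave 0.04 and −0.64. HNRNPD read 12.15 and 10.41 (−1.74), and 4 of its other 5 probe sets gave −1.51 to −1.85 while one gave 0.96. SRSF7 read 11.65 and 10.47 (−1.18, others −0.82 and −0.31) and HNRNPA2B1 11.99 and 10.84 (−1.15, others −0.85 and 1.5). For TRA2A, HNRNPD and HNRNPA2B1 the probe sets of 1 gene thus disagreed in sign.

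The kinases CLK1 (6.51 and 7.60, 1.09) and CLK4 (5.73 and 6.75, 1.02), which phosphorylate SR proteins, were the 2 higher members, and CLK3 read 7.56 and 8.28 (0.72). Of 36 cytosolic ribosomal proteins and 26 ribosome biogenesis genes none passed 2-fold, with medians of 0.06 and 0.00, and the ribosomal proteins lay between −0.05 and 0.20. Of 34 proteasome subunits 29 were below 0. PSMB10, a catalytic immunoproteasome subunit, was the 1 at least 2-fold lower (7.86 and 6.74, −1.12), near the 2.7% of all genes. Circadian clock genes had a median of 0.64 over 11 members, which was 0.10 without a limit on low values, and only BHLHE40 passed 2-fold. The 4 measured AHR targets lay between −0.02 and 0.53.

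Several of the most different genes belonged to no list. CEMIP, which binds and degrades hyaluronan, read 4.89 on Control and 9.87 on CC (4.98, 31.5-fold), against 6.80 on VST and 7.13 on Phen. S100P, a calcium-binding protein, read 3.49 and 6.73 (3.24). SMOX, the spermine oxidase, read 6.0 and 8.98 (2.97), and SAT1, which acetylates spermine and spermidine, 7.66 and 10.24 (2.58, others 2.37 and 2.55), both enzymes of polyamine breakdown. NMRAL2P, a pseudogene, read 3.50 and 6.11, and TMEM116 3.60 and 6.15. CSNK1E, casein kinase 1 epsilon, read 7.40 and 10.06 (2.66), but its other probe set differed by 0.43.

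At the low end SYNE1, the nuclear envelope protein nesprin-1, read 8.36 and 5.38 (−2.98), although its other probe set differed by 0.43. DCLK1, a doublecortin-like kinase, read 8.36 and 5.55 (−2.82, other −2.88), and DDX46, a spliceosomal RNA helicase, 10.19 and 7.83 (−2.36, other −2.13). OPN3, an opsin, read 6.60 and 4.04, SPP1, osteopontin, 8.50 and 6.22, and PTX3, a pentraxin, 9.91 and 7.75. DDX46 and DCLK1 were lower on both of their probe sets. Probe sets without a single symbol are not named as genes. The lowest of them, with several symbols, read 9.26 on Control and 4.25 on CC (−5.01), further down than any named gene. The highest of them, also with several symbols, read 4.43 and 7.93 (3.50).

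ND6, a complex I subunit coded in the mitochondrial genome, read 9.16 and 7.07 (−2.09), and 5.78, 5.57 and 6.32 on VST, Phen and 2DG. The other low genes were NEXN, an actin-binding protein (6.36 and 4.30), AIG1 (6.27 and 4.21), UCA1, a long non-coding RNA (5.82 and 3.78), SERPINB7, a serpin (7.60 and 5.60), and MMD (6.73 and 4.68), whose other probe set was 1.37 higher.

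The 2DG arrays gave a second pair that differed by compound C, 2DG+CC against 2DG, and it shares no array with the first. In that pair 1709 probe sets were at least 2-fold higher (11.0%) and 3561 lower (23.0%), and by gene 702 were higher (8.33%) and 2141 lower (25.4%). The poly-A control RNA read 1.22 above Control on 2DG+CC and 0.35 above it on 2DG, and with the arrays scaled on it 3.43% of all probe sets were higher in this pair and 50.1% lower. Of the 669 probe sets higher in normal growth, 174 were at least 2-fold higher in 2DG too (26.0%, 95% Wilson interval 22.8 to 29.5, for counting error only), above the 11.0% over all probe sets. Such an interval counts probe sets of 1 gene as separate, while the 579 of the 669 with 1 symbol named 458 genes. A further 167 of the 669 were at least 2-fold lower in 2DG (25.0%), near the 23.0% over all.

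The 443 lower probe sets did not stand out in this way. In 2DG 106 of them were at least 2-fold lower (23.9%, interval 20.2 to 28.1), against 23.0% over all, and 58 were at least 2-fold higher (13.1%), against 11.0%. Scaled on the poly-A controls, the share of the higher that were higher in both media was 14.3%, against 3.43% of all, and of the lower that were lower in both 50.3%, against 50.1%. With VST in 2DG, 8.52% of the 669 were higher (6.95% of all) and 8.58% of the 443 lower (18.3%). With Phen in 2DG these shares were 12.0% (7.35%) and 12.9% (20.2%).

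By gene, 66 were at least 2-fold higher with compound C in both media, 64 lower in both, 85 higher in normal growth and lower in 2DG, and 30 the reverse. The 66 were 20.2% of the genes higher in normal growth, against 8.33% of all genes higher in 2DG. The 85 were 26.0% of the same genes and the 64 were 28.1% of those lower in normal growth, near the 25.4% of all genes lower in 2DG, and the 30 were 13.2%. CCL20 read 2.93 on 2DG, under the median of that array, and 8.52 on 2DG+CC, so it was at least 5.40 higher, beside 5.26 in normal growth. EGR1 read 6.04 and 11.93 (5.89), SAT1 8.37 and 10.95 (2.58), and INHBA 4.58 and 7.52 (2.94). OPN3 (7.07 and 4.44, −2.63), SPP1 (9.76 and 7.86, −1.91) and ANKRD1 (5.62 and 3.67, −1.96) were lower in both.

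With compound C in 2DG the median of the ATF4 and CHOP targets was −0.38, beside −0.23 over all genes. Of the 35, 5 were at least 2-fold higher (14.3%, against 8.33% of all genes) and 12 lower (34.3%, against 25.4%). INHBE read 7.94 on 2DG and 3.49 on 2DG+CC (−4.45), and ASNS read 11.37 and 9.52 (−1.85), while ATF3 read 6.36 and 9.88 (3.52). Of the BMP targets ID3 read 7.66 and 7.68 and ID1 8.40 and 8.21, so that 2DG alone had both below Control, and ID2 read 4.47 and 8.43 (3.96). Whether these differences between media exceed the spread between cultures was not tested, since each condition has 1 array.

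**Figure D5:**
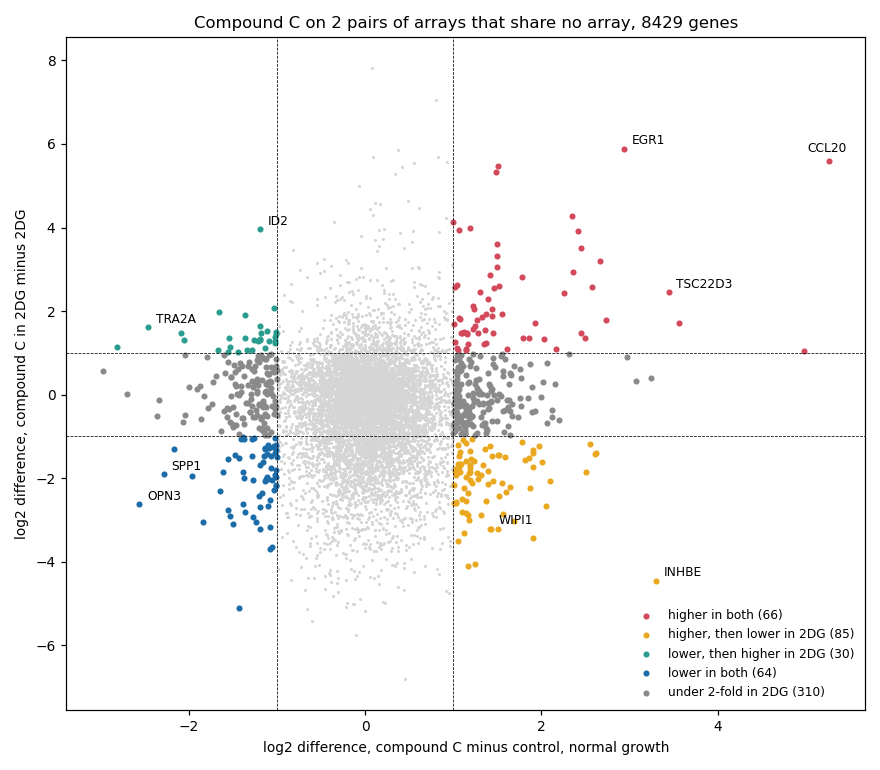
Log2 difference made by compound C in 2DG (vertical axis) against that in normal growth (horizontal axis) for 8429 genes, 1 array a side in each, with the 2-fold lines dashed and the numbers of genes in the legend. CCL20 and EGR1 lie at the top right, higher in both media, INHBE at the bottom right, and 85 genes share its quadrant.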

How the data were processed

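The deposited values are log2 intensities of 54675 probe sets of Affymetrix Human Genome U133 Plus 2.0 arrays, which the authors made with RMA (background correction, normalization between arrays and summary of each probe set), per the labels; which software ran it is not given in the sources used here. Groups came from the sample descriptions, with 1 array in each of 8 conditions. RMA makes the arrays' distributions alike, so a shift of all transcripts in 1 direction would be removed. The number of arrays limits the precision.

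Counts leave out 62 control probe sets and take probe sets that reach log2 6 on at least 1 array. Of the other 54613, the platform annotation gave 1 symbol to 41091, several to 1801 and none to 11721, and of those kept to 13771, 769 and 963. Each gene was read by its probe set with the highest mean over the 8 arrays. A difference was counted from 2-fold (log2 of 1), with no test. A value under its array's median was taken as not above background and the difference given as a bound. The 42 lists held 1016 genes, of which 757 were measured. The members, lists and rules were chosen with earlier results of these data known. Genes named were the 15 highest, the 15 lowest, up to 4 of each list with the largest difference, every member of the BMP, AMPK and cholesterol lists, and the genes named for the pathways of the study (226 in all); others are said to be chosen after their values were seen or were named for their promoters, read from RefSeq sequences. Alternatives were the fold, the limit on low values, the scaling, the probe sets and the unit counted, and limits on the Control array or on the mean of both arrays were added after the data had been seen. Counting was tested on simulated data. Python 3.11.15, pandas 2.3.3, numpy 2.4.6 and statsmodels 0.14.6 were used.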

Additional observations from a re-analysis of the deposited data

Results flagged for a closer look

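Among the named genes, 19 were at least 2-fold different one way with compound C in normal growth and at least 2-fold the other way with compound C in 2DG, on pairs that share no array; with 1 array in each condition the difference was not tested. In that pair 8.33% of all genes were at least 2-fold higher and 25.4% lower. Of the genes higher in normal growth, the log2 difference in 2DG was −4.45 for INHBE, −3.21 for SKIL, −3.21 for WIPI1, −2.60 for DUSP4, −1.56 for IL1B, −1.53 for NPC1, −1.46 for NDRG1, −1.43 for NUPR1, −1.40 for NMRAL2P, −1.23 for SLC7A11 and −1.17 for TMEM116, whose value on 2DG+CC lay under the median of that array, so that it was at least 1.08 lower. Of the genes lower in normal growth, it was 3.96 for ID2, 1.61 for TRA2A, 1.47 for SRSF7, 1.47 for ND6, 1.44 for TK1, 1.31 for AIG1, 1.29 for MMP3 and 1.13 for DCLK1. Other probe sets of some of these genes did not follow in 2DG. That of NPC1 differed by 2.64, that of SKIL by −0.07 and those of SRSF7 by 0.065 and 0.52. Those of SLC7A11 differed by 0.30 and −1.47, and those of TRA2A by 0.89 and 1.15. Those of DUSP4, WIPI1, IL1B, TK1 and DCLK1 were at least 2-fold different in the same direction. The poly-A control RNA read 1.22 above Control on 2DG+CC and 0.35 above it on 2DG, a shift of 0.87 between the pair. Scaled on it, of the 8 genes higher in 2DG only ID2 stayed at least 2-fold higher (3.09), the others lying between 0.26 and 0.75, and the 11 genes lower in 2DG all stayed at least 2-fold lower there, while DUSP4 was then 0.93 higher in normal growth.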

How the results depend on the processing

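No paired analysis was possible because each condition has 1 array, and no replicate could be left out for the same reason. Named genes were run only under the other scalings and under a summary of all probe sets of each gene. No named gene at least 2-fold different changed sign under these. Of the 226 named genes 10 did, with main values of 0.85 at most (CD44), and 8 list medians did, with main values of 0.15 at most. Size changed more under the summary of all probe sets. Genes that then fell under 2-fold included ERN1 (0.55), MMD (−0.34), TRA2A (−0.64), MCM10 (−0.72) and SRSF7 (−0.82), while SCD passed it (1.37). In all, 881 of the 904 values of named genes under an alternative and 402 of the 415 such list medians moved by less than the spread between probe sets. Much of this was fixed in advance. Centring and poly-A scaling shift every gene by the same amount, smaller than that spread, and the summary leaves genes with 1 probe set unchanged. Single genes were not checked against the limits on low values or without ambiguous probe sets. The count of higher probe sets (669) was 2058 at 1.5-fold and 176 at 3-fold, 327 by gene, 1225 without a limit on low values, 295 and 436 with log2 6 asked of the Control array or of the mean of both arrays (limits chosen after seeing the data), and 406 without probe sets that may match several transcripts. The count of lower ones (443) was 1480, 80 and 228 at these first 3 settings, 366 and 295 with the limits on Control or the mean, and 284 without such probe sets. Lower calls outnumbered higher ones with centred arrays (536 higher, 563 lower) and with poly-A scaling (519 and 590), and were fewer with quantile normalization (590 and 560). They also outnumbered them with that limit on Control, but the limit keeps genes high on Control and so by itself drops more of the higher calls. The share of the higher that were higher in 2DG too was 22.4% with a limit of log2 5, 30.3% with log2 7, 18.9% with none, 21.8% with the limit on the mean, 30.0% with arrays centred on their medians and 14.3% scaled on poly-A controls; the share of the lower that were lower in 2DG too was 35.1% at 1.5-fold, 15% at 3-fold and 50.3% scaled on poly-A controls, where 50.1% of all were lower. List medians moved for BMP targets (−1.04 with log2 7, −1.06 with the limits on Control or the mean), cytokines (0.89 with log2 7 or on Control, 1.07 on the mean or without ambiguous probe sets), immediate early genes (0.39), clock genes (0.20) and CDC-like kinases (−0.30) without ambiguous probe sets, clock genes with log2 5 (0.21) or no limit (0.10), and interferon genes with no limit (0.019). The cause was not tested, apart from the smaller or larger number of probe sets that each limit leaves. With 1 array a side, the spread between cultures is unknown and limits every value above.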
